A study of Ovis aries with 6 samples.

Results

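The muscle-associated genes TNNI3, CKM, MYH11, PLN, XIRP1, MUSTN1, JPH1 and MUSK, 8 of the 30574 genes in the count matrices, were followed by name through the cells of the sheep ovary. They were chosen by their levels in granulosa cells in earlier results of these same libraries, so those levels across cell classes are given as a description, with no test. The comparison between litter size groups played no part in that choice except for PLN, and it was tested. The libraries came from 1 ovary of each of 6 Hu ewes (Ovis aries) in estrus. HLS replicates 1 to 3 were ewes of high reproduction with litters of at least 3 lambs, and LLS replicates 1 to 3 were ewes of low reproduction with litters below 2 lambs. No treatment is named for either group. Vessels, stroma, follicles and any luteal tissue of an ovary entered the same library.

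Granulosa cells line the ovarian follicle around the oocyte, divide under follicle-stimulating hormone, and make oestradiol, inhibin and anti-Müllerian hormone. Muscle cells contract when calcium lets myosin pull on actin. In striated muscle the troponin complex is the calcium switch on the thin filament, in smooth muscle phosphorylation of the myosin light chains takes that role, calcium is stored in the sarcoplasmic reticulum, and creatine kinase buffers ATP. Smooth muscle and pericytes of the ovary's vessels, and smooth muscle-like cells of the theca externa, are the known contractile cells of this organ.

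Of 52290 barcodes, 36457 cells were retained, between 5189 and 7096 per ewe, with a median of 5186 to 9646 UMI per cell (a UMI, unique molecular identifier, counts 1 captured transcript). The deposited matrices held between 43329214 and 75549906 UMI per ewe. Of the 36314 barcode sequences retained, 143 occurred in more than 1 library. Cell classes were named from marker lists that held none of the 8 genes. The clusters were built without the 8 genes and without all other genes of the muscle lists described below, such as ACTA2 and TAGLN. There were 2847 granulosa-like cells in 6 states, 1252 smooth muscle-like and 1391 pericyte-like cells. The granulosa states were an early state (713 cells, marked by WT1 and WNT6), an INHA-AMH state (488 cells, marked by INHA, AMH, FST and HSD17B1), cycling cells (191), a mural state (1038 cells, marked by HTRA3, RUNX2, IGFBP5 and TIMP1), an oestrogenic state high in CYP19, the aromatase gene (55 cells), and a mixed state that scored alike for the early and the INHA-AMH markers (362 cells). Of the oestrogenic cells 48 came from LLS replicate 1, and of 105 luteal-like cells 104 came from LLS replicate 3, so both classes stand for 1 ewe. Among the mural cells, 1 sub-cluster led by the interferon-induced genes MX1 and ISG15 took 183 of its 186 cells from LLS replicate 2, and 1 led by GCG and MMP1 took 167 of its 176 cells from HLS replicate 1. Scores are means of marker levels, each scaled to its highest cluster. For the general granulosa markers the mural sub-clusters scored 0.4495 to 0.524. Those of the early state scored 0.337 to 0.684 and those of the INHA-AMH state 0.618 to 0.902.

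Levels are given as CPM, the UMI of a gene per 1000000 UMI of the class in a ewe, as mean ± SD over ewes. The libraries read the 3′ end of transcripts, so 1 gene was compared between classes and no level was compared between genes. Shares of cells with a UMI were taken after thinning each cell of at least 2000 UMI to that depth. Their exact binomial 95% confidence intervals cover counting error only. Shallower cells were left out of the thinned shares, which therefore stand for the deeper cells of a class. Left out were 123 of 488 INHA-AMH, 538 of 1686 T cell or NK-like and 453 of 1252 smooth muscle-like cells. Shares before thinning are of all cells. T cell or NK-like cells, which are not contractile, are given beside these shares as a class that should lack the genes, since free RNA in the droplets also gives UMI. In sums over many cells, fewer expressing cells and less RNA per cell cannot be told apart. Deposited gene names were used throughout.

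The 8 genes fell into groups by where they were highest. TNNI3 and CKM were highest in the INHA-AMH and cycling granulosa states. XIRP1 and MUSK were highest in the mural state, and MUSTN1 stood there beside smooth muscle-like and lymphatic endothelial-like cells. JPH1 was high in the mural state and higher still in the luteal-like cells of 1 ewe. MYH11 and PLN were highest in smooth muscle-like cells, MYH11 also with 410.3 CPM in early granulosa cells. PLN in granulosa-like cells was close to its level in T cell or NK-like cells, apart from 1 ewe in which it was higher. It was above the level in endothelial-like and macrophage-like cells and below that in stromal-like and theca-like cells.

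**Figure D1:**
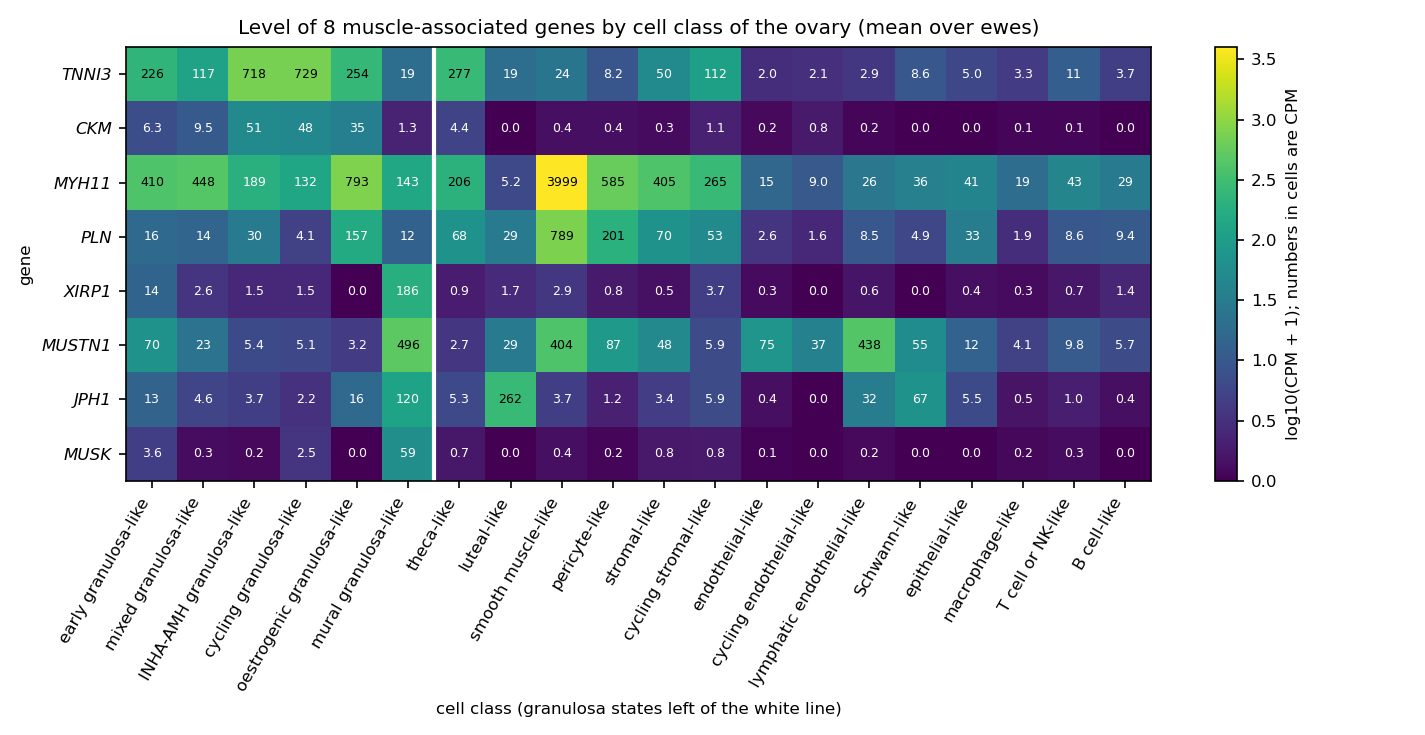
Mean level over ewes of the 8 genes (vertical axis) in 20 named cell classes (horizontal axis, granulosa states left of the white line), coloured by log10(CPM + 1) with the CPM written in each cell. TNNI3 reaches 718 CPM in the INHA-AMH state, XIRP1 186 in the mural state and MYH11 3999 in smooth muscle-like cells.

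TNNI3 encodes the inhibitory subunit of troponin known from heart muscle, which holds myosin off the thin filament until calcium rises. In the INHA-AMH state it stood at 1017, 741 and 734 CPM in HLS replicates 1 to 3 and at 440, 756 and 620 CPM in LLS replicates 1 to 3, or 718 ± 189 CPM (SD, n = 6). Cycling granulosa cells had 729 ± 146 CPM (SD, n = 5 ewes), which did not differ from the INHA-AMH state beyond the larger SD. Every ewe's INHA-AMH value lay above every ewe's value in theca-like cells, the androgen-making cells outside the follicle, where TNNI3 stood at 277 ± 53.8 CPM (SD, n = 6). The early state had 226 ± 141 CPM, with the LLS group holding both its lowest (69.2) and its highest ewe (401), and did not differ from theca-like cells beyond that spread. TNNI3 was low in the mural state, at 18.8 ± 3.27 CPM, and in smooth muscle-like cells, at 23.8 ± 10.4 CPM. At 2000 UMI per cell, 66.8% of INHA-AMH cells held a TNNI3 UMI (75.2% before thinning, median 5208.5 UMI per cell), against 2.09% (95% CI 1.34 to 3.09) of T cell or NK-like cells (2.97% before thinning, median 2369 UMI per cell). T cell or NK-like cells had 10.9 CPM of TNNI3.

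CKM encodes the muscle form of creatine kinase, which passes phosphate from creatine phosphate to ADP. It was highest in the same states as TNNI3. Its level in the INHA-AMH state was 60.3, 51.4 and 52.0 CPM in HLS ewes and 54.5, 45.3 and 44.7 CPM in LLS ewes, or 51.4 ± 5.83 CPM (SD, n = 6), from 188 UMI in all. Cycling granulosa cells had 47.5 ± 8.37 CPM (SD, n = 5), within the larger SD of the INHA-AMH state. The ranges over ewes of these states did not overlap with that of theca-like cells, at 4.39 ± 0.433 CPM, or of the mural state, at 1.28 ± 0.983 CPM. In smooth muscle-like cells CKM was at 0.425 CPM. At double the clustering resolution the INHA-AMH level of CKM was 33.4 CPM. The share of INHA-AMH cells with a CKM UMI was 8.49% (95% CI 5.84 to 11.8) at 2000 UMI per cell and 25.6% before thinning, against 0.0871% (95% CI 0.00221 to 0.484) of T cell or NK-like cells at the same depth. CKM overlaps MARK4 in RefSeq, which ran the other way, with 4.18 CPM in the INHA-AMH and 12.5 CPM in the mural state.

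Within the INHA-AMH state CKM and TNNI3 were not spread alike. CKM stood at 52.5 and 69.0 CPM in the sub-clusters of 237 and 142 cells, from 158 and 27 UMI. In the sub-cluster of 109 cells it stood at 10.5 CPM, which rests on 3 UMI. TNNI3 stood at 750.4, 762 and 572 CPM in the same order. The sub-cluster with little CKM was led by FATE1 and CCL25 and had none of the state's markers among its leading genes. Over 20 cell classes the genes most like CKM were MINAR2 (Pearson r = 0.97 of log2(CPM + 1)), GCLC, the catalytic subunit of glutamate-cysteine ligase in glutathione synthesis (0.95), and JSRP1, a protein of the sarcoplasmic reticulum's junctional face (0.95). Those most like TNNI3 were LSS, lanosterol synthase of the cholesterol pathway (0.94), HS6ST2, a heparan sulfate sulfotransferase (0.94), and LOC101108787 (0.94), and CKM and TNNI3 had r = 0.86. These correlations are across classes of the same libraries and are given as a description.

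MYH11 encodes the smooth muscle myosin heavy chain, the motor of smooth muscle contraction. In smooth muscle-like cells it stood at 2402, 4803 and 4338 CPM in HLS ewes and 4380, 4438 and 3635 CPM in LLS ewes, or 3999 ± 869 CPM (SD, n = 6), with HLS replicate 1 the lowest. The clusters left unnamed held 874 ± 174 CPM, and of the named classes with more than 1 ewe pericyte-like cells followed at 585 ± 130 CPM. The mixed granulosa state (448 ± 20.5 CPM, n = 4), the early granulosa state (410.3 ± 121 CPM, n = 6) and stromal-like cells (405 ± 52.7 CPM, n = 6) came next and did not differ from each other beyond the larger SD. In the early state HLS ewes had 239, 534 and 537 CPM and LLS ewes 327, 465 and 360.2 CPM, and the INHA-AMH and mural states were lower, at 189 ± 93.1 and 143 ± 57.7 CPM. At 2000 UMI per cell 54.3% of early granulosa cells and 95.2% of smooth muscle-like cells held a MYH11 UMI, against 7.14% (95% CI 5.72 to 8.79) of T cell or NK-like cells.

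MYH11 was also set against 5 other smooth muscle genes in each class, as a description. Per UMI of ACTA2, the smooth muscle actin, early granulosa cells had 3.13, 9.42 and 10.9 UMI of MYH11 in HLS ewes and 5.60, 8.03 and 9.32 in LLS ewes, or 7.73 ± 2.87 (SD, n = 6). Smooth muscle-like cells had 0.985 ± 0.313, and pericyte-like cells 0.296. T cell or NK-like cells had 0.552, endothelial-like cells 0.659 and macrophage-like cells 0.684, all below every ewe's value in early granulosa cells. Theca-like cells had 2.73 ± 1.14, and their range over ewes overlapped with that of early granulosa cells. ACTA2 itself was at 56.2 ± 12.3 CPM in early granulosa cells and at 77.5 ± 11.8 CPM in T cell or NK-like cells. Set against TAGLN, an actin-binding protein of smooth muscle, MYH11 was at 4.84 ± 2.33 in early granulosa cells and at 0.873 ± 0.248 in smooth muscle-like cells. Set against DES, desmin of the intermediate filaments, it was at 189 ± 134 and 47.3 ± 13.8. HLS replicate 1 and LLS replicate 3 had 0 DES UMI in early granulosa cells and gave no ratio. The other ewes had 1 to 12 DES UMI there. Against CNN1, calponin, MYH11 was at 26.0 ± 13.0 and 15.4 ± 5.90. Against ACTG2, the enteric smooth muscle actin, it was at 38.4 ± 26.6 and 46.4 ± 27.5. Between early granulosa and smooth muscle-like cells the ranges over ewes overlapped for CNN1, ACTG2 and DES and not for ACTA2 and TAGLN. In all granulosa-like cells MYH11 was at 3.94 ± 2.01 against ACTA2, above the smooth muscle-like range. It was at 108 ± 92.8 against DES, 1.002 ± 0.542 against TAGLN and 7.51 ± 4.21 against CNN1, and these ranges overlapped. Against ACTG2 it was lower than in every smooth muscle-like ewe, at 3.59 ± 2.97 (highest 9.17, against a lowest of 19.2). In the 387 early granulosa cells with no UMI of ACTA2 or TAGLN, MYH11 stood at 385 ± 121 CPM (n = 5 ewes), and in such T cell or NK-like cells at 40.7 ± 15.1 CPM, each near the level of its whole class. The 11 smooth muscle markers summed to 281.5 ± 65.4 CPM in the early state, against 10162 ± 1374 CPM in smooth muscle-like cells.

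**Figure D2:**
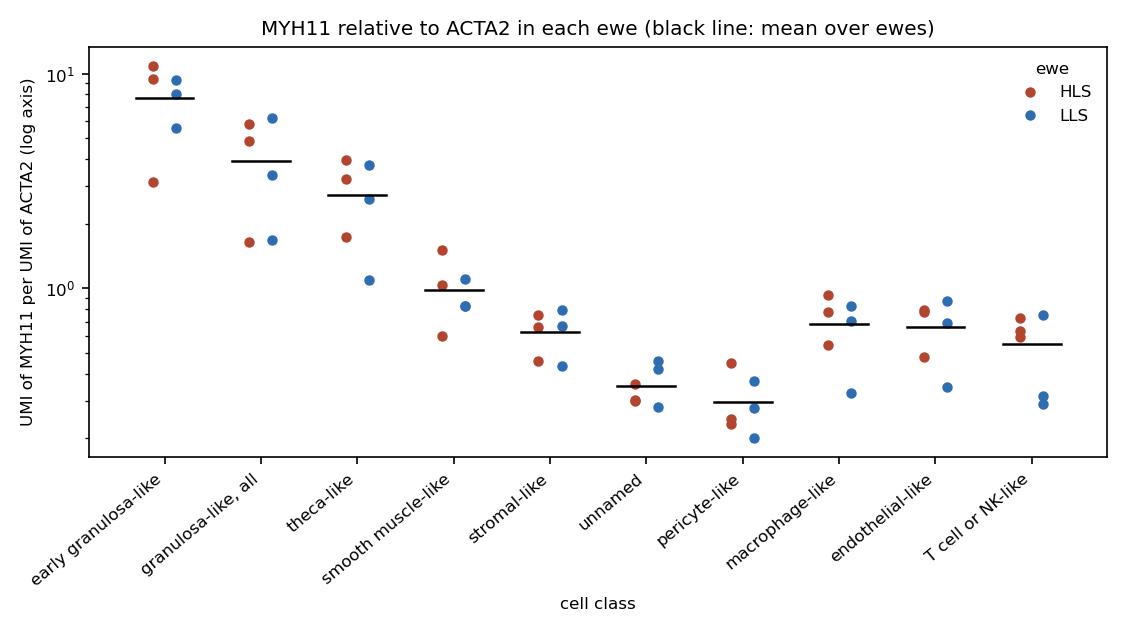
UMI of MYH11 per UMI of ACTA2 (log axis) in each ewe by cell class, with red points for HLS ewes, blue points for LLS ewes and a black line at the mean over ewes. Early granulosa-like cells lie at 3.13 to 10.9 and smooth muscle-like cells at 0.600 to 1.51, with no overlap.

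The oestrogenic state of LLS replicate 1 was an exception for MYH11. It held 793 CPM, together with TAGLN at 3353, ACTA2 at 626, CNN1 at 517 and ACTG2 at 340.1 CPM, and the 11 smooth muscle markers summed there to 5015 CPM, of which DES, FHL5, KCNA5, NTRK3 and RERGL were at 0. ANKRD1, a stress-responsive ankyrin repeat protein of heart muscle, was at 459 CPM in the same cells. In the INHA-AMH state of LLS replicate 1 the markers summed to 1432 CPM, against 110.3 to 169.5 CPM in the other 5 ewes, and the median was 1676 UMI per cell, against 3141 to 10493. The part of these markers in the MYH11 values of this ewe was not tested. The genes most like MYH11 over the classes were ANGPT4 (r = 0.92), a ligand of the TIE2 receptor, CNNM2 (0.91) and ROR1 (0.89).

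PLN encodes phospholamban, which restrains the calcium pump of the sarcoplasmic reticulum. In smooth muscle-like cells it stood at 543, 842 and 812 CPM in HLS ewes and 743, 970.4 and 826 CPM in LLS ewes, or 789 ± 141 CPM (SD, n = 6), above every ewe's value in pericyte-like cells, at 200.6 ± 44.1 CPM. In all granulosa-like cells it was at 10.97, 9.93 and 9.14 CPM in HLS ewes and 58.3, 13.9 and 12.4 CPM in LLS ewes. LLS replicate 1 stood apart from the others. At 2000 UMI per cell 2.88% (95% CI 2.27 to 3.60) of granulosa-like cells held a PLN UMI (9.66% before thinning, median 8191 UMI per cell), against 1.92% (95% CI 1.205 to 2.89) of T cell or NK-like cells (2.19% before thinning, median 2369), which had 8.62 CPM. Those intervals overlapped. Endothelial-like cells held a PLN UMI in 0.464% (95% CI 0.356 to 0.595, 2.58 CPM) and macrophage-like cells in 0.675% (95% CI 0.272 to 1.39, 1.95 CPM), both below the interval of granulosa-like cells. Outside LLS replicate 1 the granulosa-like level was 9.14 to 13.9 CPM. Means were higher in stromal-like cells (70.0 ± 10.7 CPM), theca-like cells (67.6 ± 6.17 CPM), cycling stromal-like cells (52.6 ± 7.78 CPM) and epithelial-like cells (32.6 ± 21.5 CPM). In RefSeq PLN overlaps CEP85L, which was also higher in smooth muscle-like cells, at 104 CPM, than in granulosa-like cells, at 20.2 CPM, and how shared reads were assigned is not stated.

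In LLS replicate 1 PLN was highest in the oestrogenic cells, at 157 CPM, and in the INHA-AMH cells, at 120.7 CPM against 6.39 to 17.7 CPM in the other ewes. In all its granulosa-like cells ACTA2 was at 202 CPM (45.6 to 59.3 in the other ewes), TAGLN at 801 (137 to 252) and the 11 smooth muscle markers summed to 1325 CPM (259.8 to 508). Their part in the PLN value was not tested. The genes most like PLN over the classes were ACTA2 (r = 0.86), MYL9 (0.86) and CNN1 (0.85), which are smooth muscle contractile genes, and MYH11 had r = 0.77 with it.

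**Figure D3:**
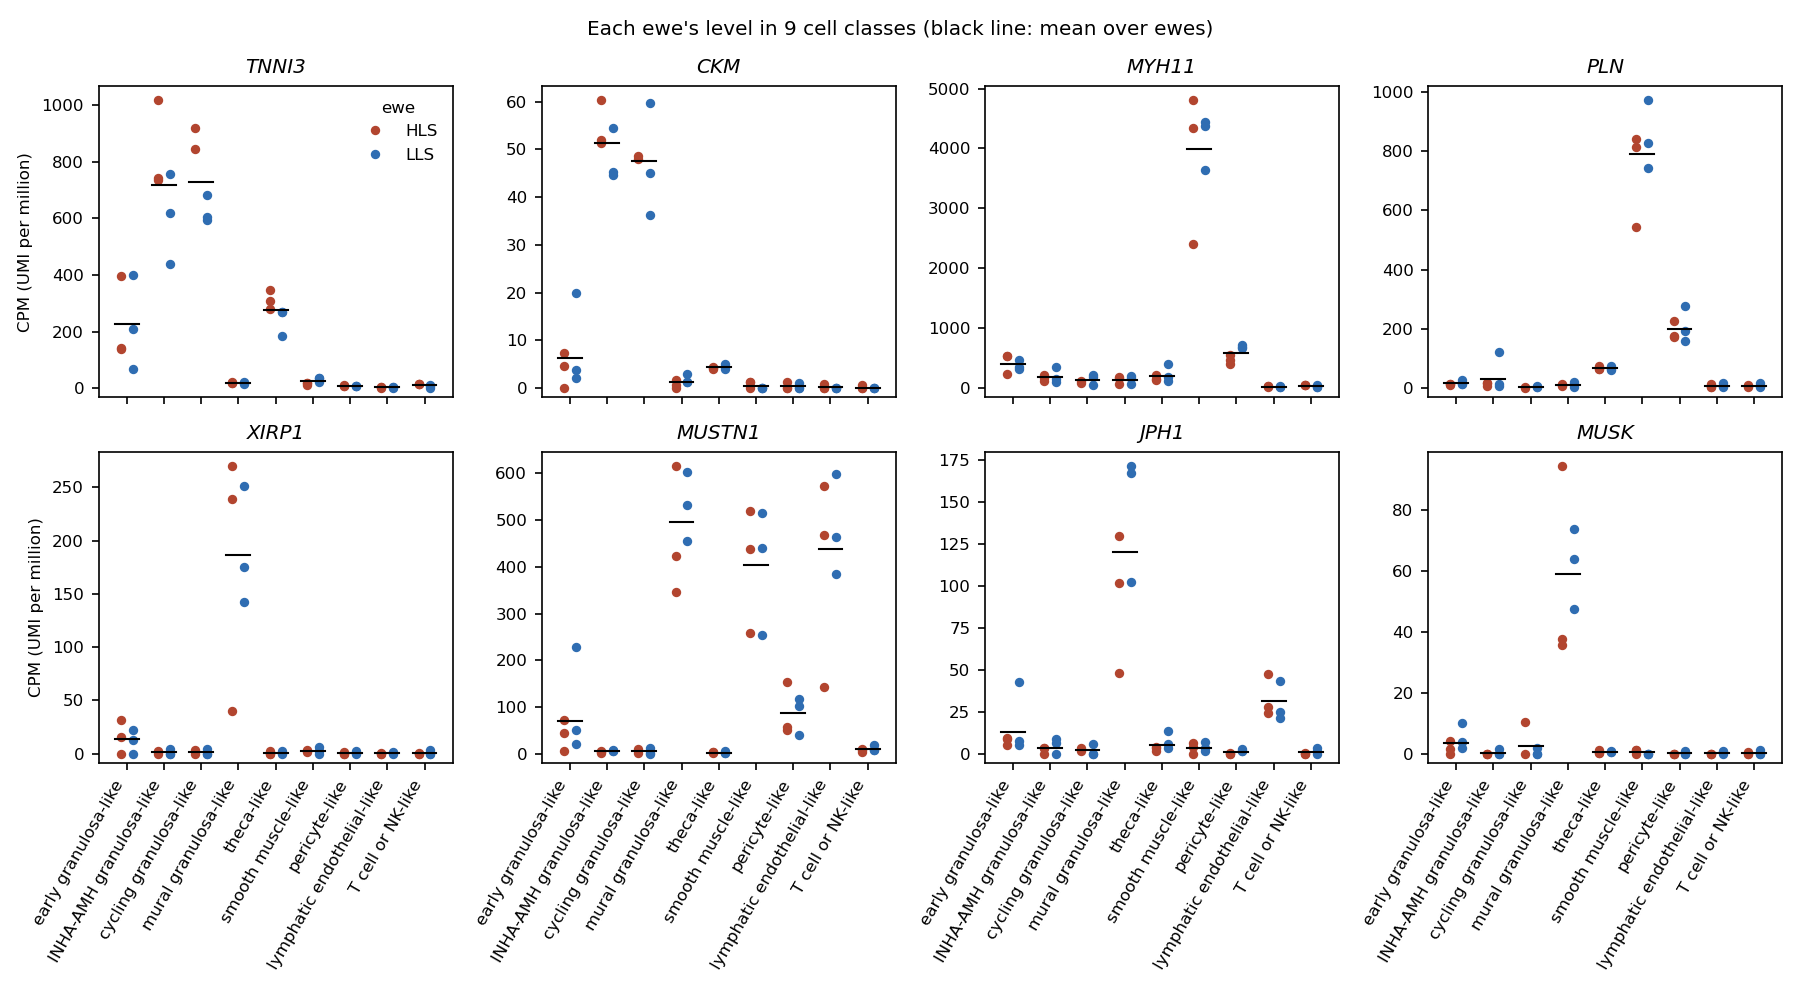
Level in CPM (vertical axis, from 0, scaled per gene) of the 8 genes in 9 cell classes, with red points for HLS ewes, blue points for LLS ewes and a black line at the mean. TNNI3 and CKM peak in INHA-AMH and cycling granulosa cells, MYH11 and PLN in smooth muscle-like cells, XIRP1 and MUSK in mural granulosa cells, and 1 LLS ewe lifts PLN in the INHA-AMH state to 120.7 CPM.

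JPH1 encodes junctophilin 1, which ties the sarcoplasmic reticulum to the plasma membrane in skeletal muscle. In the mural state it stood at 48.0, 101.7 and 129.8 CPM in HLS ewes and 102.4, 167 and 171 CPM in LLS ewes, or 120.1 ± 46.4 CPM (SD, n = 6), with HLS replicate 1 the lowest. The luteal-like cells of LLS replicate 3 held 262 CPM from 303 UMI, the highest value of any class and 1 with no replicate. Schwann-like cells had 66.5 ± 42.8 CPM (n = 5 ewes), which rest on 27 UMI, and lymphatic endothelial-like cells 31.6 ± 11.1 CPM. The early granulosa state was at 13.2 ± 14.6 CPM and smooth muscle-like cells at 3.69 CPM. At 2000 UMI per cell 17.2% of mural cells held a JPH1 UMI (50.8% before thinning, median 11242 UMI per cell), against 0.174% (95% CI 0.0211 to 0.628) of T cell or NK-like cells. The genes most like it were SLC16A12, a monocarboxylate transporter relative (r = 0.83), GDAP1 (0.82), which is also its neighbour in the RefSeq annotation, and CSRP3, a muscle LIM protein (0.81).

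XIRP1 encodes a Xin repeat protein that binds and stabilises actin filaments at the junctions of heart and skeletal muscle. In the mural state it stood at 40.5, 239 and 270.0 CPM in HLS ewes and 142, 251 and 175 CPM in LLS ewes, or 186 ± 86.4 CPM (SD, n = 6). HLS replicate 1 was again the lowest, and still above every ewe's value in the early state, the next class, at 13.6 ± 12.4 CPM. Smooth muscle-like cells held 2.89 ± 2.26 CPM and the INHA-AMH state 1.497 ± 1.85 CPM. The share of mural cells with an XIRP1 UMI was 20.8% (95% CI 18.3 to 23.5) at 2000 UMI per cell and 43.3% before thinning, against 0.626% of smooth muscle-like and 0.0871% of T cell or NK-like cells at that depth. The genes most like XIRP1 were MUSK (r = 0.92), MMP1, interstitial collagenase (0.89), and IGFBP1, an insulin-like growth factor binding protein (0.89).

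MUSTN1 encodes a small nuclear protein of the musculoskeletal system. In the mural state it stood at 616, 347 and 423 CPM in HLS ewes and 456, 602 and 532 CPM in LLS ewes, or 496 ± 106 CPM (SD, n = 6). Lymphatic endothelial-like cells had 438 ± 164 CPM, with 143 CPM in HLS replicate 3 and 385 to 599 CPM in the others, and smooth muscle-like cells had 404 ± 120 CPM. These levels did not differ beyond the larger SD, and all ewes' ranges overlapped. Pericyte-like cells (86.8 ± 44.6 CPM), endothelial-like cells (74.9 ± 31.4 CPM) and the early state (70.4 ± 80.7 CPM) lay well below. In the early state LLS replicate 3 had 228 CPM. At 2000 UMI per cell 41.7% of mural, 52.4% of lymphatic endothelial-like and 47.3% of smooth muscle-like cells held a MUSTN1 UMI, against 1.31% of T cell or NK-like cells. The 11 smooth muscle markers summed to 700.2 ± 225.5 CPM in the mural state, a small share of the 10162 CPM in smooth muscle-like cells, at a like level of MUSTN1. The INHA-AMH state was at 5.43 ± 2.07 CPM of MUSTN1, so within granulosa cells MUSTN1 ran opposite to TNNI3 and CKM. The genes most like it were GJA4, connexin 37 (r = 0.88), KALRN (0.86) and SLC25A37 (0.84).

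MUSK encodes the receptor kinase that gathers acetylcholine receptors at the neuromuscular junction. In the mural state it stood at 35.7, 94.4 and 37.8 CPM in HLS ewes and 64.0, 47.6 and 73.6 CPM in LLS ewes, or 58.8 ± 22.8 CPM (SD, n = 6). The next class was the early granulosa state, at 3.59 ± 3.57 CPM, and the ranges did not overlap. Smooth muscle-like cells held 2 UMI of MUSK in all, or 0.425 CPM. The share of mural cells with a MUSK UMI was 6.63% (95% CI 5.16 to 8.38) at 2000 UMI per cell and 23.7% before thinning, and no T cell or NK-like cell of 1148 held one at that depth (95% CI 0 to 0.321). After XIRP1, the genes most like MUSK were MMP1 (r = 0.90) and MMP13 (0.89), both collagenases. Its RefSeq neighbour LPAR1, a lysophosphatidic acid receptor, was also higher in the mural state, at 73.4 CPM, than in the INHA-AMH state, at 0.292 CPM.

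The mural genes were not spread evenly over that state. Over its 5 sub-clusters, of 317, 189, 186, 176 and 170 cells, XIRP1 stood at 171, 24.5, 253, 32.9 and 327 CPM. JPH1 followed the same order at 104, 45.5, 164, 49.4 and 174 CPM. MUSTN1, at 481, 207, 694, 660.1 and 357 CPM, did not. The sub-cluster led by GCG and MMP1, mostly from HLS replicate 1, thus had much MUSTN1 and little XIRP1 and JPH1. It held 167 of the 202 mural cells of that ewe, which had the lowest XIRP1 and JPH1 of the 6 ewes. MUSK ranged from 19.3 CPM in the sub-cluster of 189 cells to 59.9 CPM in that of 317 cells. The sub-cluster of 170 cells, with the highest XIRP1 and JPH1, was led by MMP9 and FN1. It scored 0.922 for the mural markers, 0.505 for stromal markers and 0.465 for the general granulosa markers. In the early state, XIRP1, MUSTN1, JPH1 and MUSK were highest in the sub-cluster of 278 cells, at 23.3, 117, 17.8 and 6.66 CPM. That sub-cluster scored 0.63 for the early markers and, second highest, 0.577 for the mural markers. Neither WT1 nor WNT6 was among its leading genes. TNNI3 was highest in the cycling sub-cluster of 72 cells, at 1170.1 CPM.

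**Figure D4:**
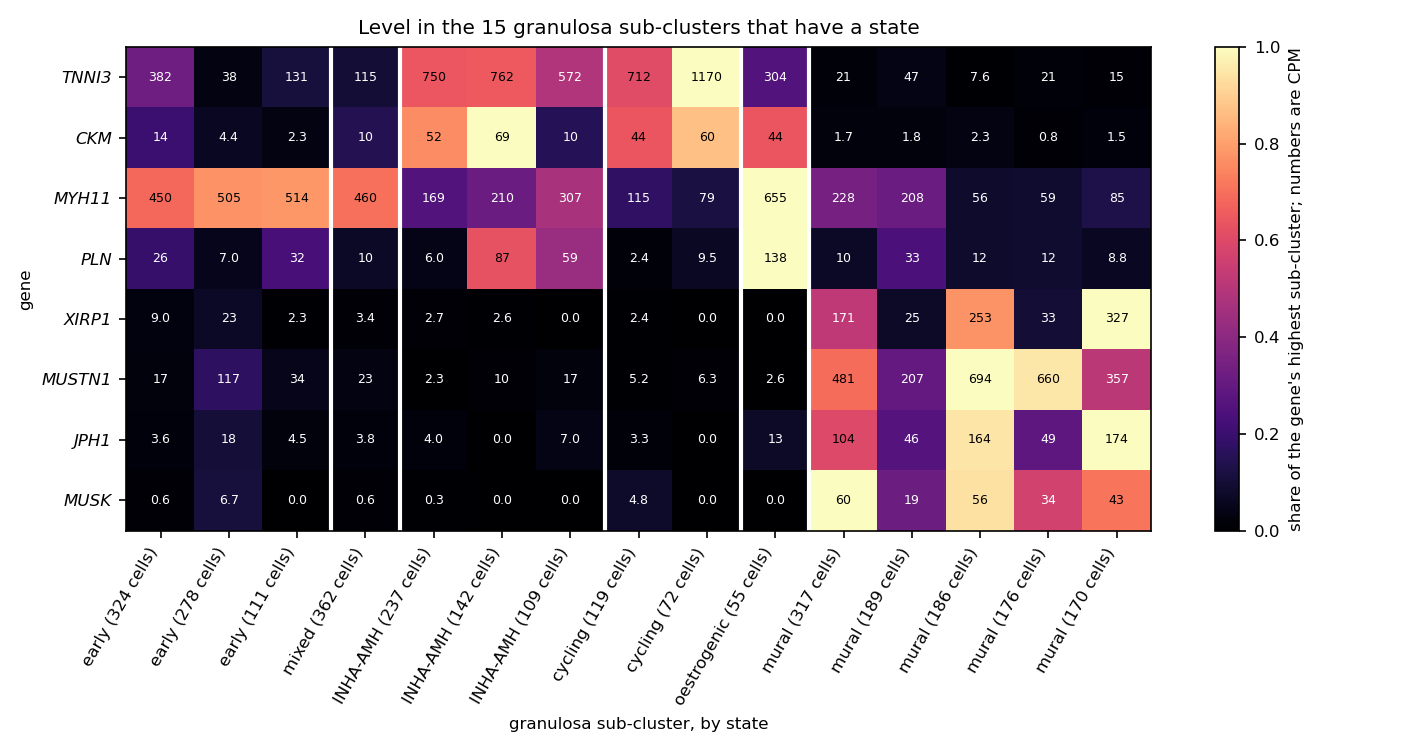
Level of the 8 genes (vertical axis) in the 15 granulosa sub-clusters that have a state (horizontal axis, with their cells), coloured by the share of each gene's highest sub-cluster with the CPM written in. TNNI3 and CKM fill the INHA-AMH and cycling columns, XIRP1, MUSTN1, JPH1 and MUSK the mural ones, and XIRP1 ranges from 24.5 to 327 CPM among the mural sub-clusters.

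Within the mural state the genes were also read cell by cell. Of 1038 mural cells, 9.83% held a UMI of all 4 of XIRP1, MUSTN1, JPH1 and MUSK, 26.0% of 3, 22.6% of 2, 23.2% of 1 and 18.3% of none. At 2000 UMI per cell (980 cells), 41.4% held none and 0.204% all 4. At that depth JPH1 was found in 27.9% of mural cells with an XIRP1 UMI and in 14.4% of those without, and MUSTN1 in 56.9% and 37.8%. MUSK was found in 13.0% of mural cells with a JPH1 UMI and in 5.30% without, but in 7.84% of those with an XIRP1 UMI and in 6.31% without. Cells of different ewes and sub-clusters were pooled here, so these shares also carry the differences between sub-clusters. Among INHA-AMH cells 92.0% held none of the 4 genes before thinning.

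The wider muscle programme was measured with gene lists, read against 33.8% of all features (10335 of 30574) that reached 5 CPM in granulosa-like cells. The list counts include the members, which were chosen by their levels in granulosa cells and all reached 5 CPM. The counts are therefore raised by that choice. Of 29 striated filament genes in the matrices 4 did, TNNI3 itself, NEB, TNNT1 and MYBPC2. NEB, nebulin of the thin filament, was at 8.22 CPM, and TNNT1, slow skeletal troponin T, at 5.84 CPM. MYBPC2, a myosin binding protein, was at 5.40 CPM. In T cell or NK-like cells NEB was higher, at 10.4 CPM, and TNNT1 (0.648 CPM) and MYBPC2 (2.76 CPM) were lower. TNNI3's RefSeq neighbour is TNNT1, which stood at 11.96 CPM in the INHA-AMH state and was highest in theca-like cells, at 23.2 CPM. A shorter list of 11 striated muscle markers, all of them also among the 29, summed to 14.7 ± 5.57 CPM in granulosa-like cells. NEB was again the gene that reached 5 CPM, and MYH1, MYH2, MYL1 and MYL2 were at 0 in every ewe. Of 17 smooth muscle contractile genes 13 reached 5 CPM, led, apart from MYH11, by TPM1 (1654 CPM), CALD1 (492 CPM) and TPM2 (355 CPM), actin-filament proteins of many non-muscle cells. MYOCD, the coactivator that drives smooth muscle genes, was at 3.16 CPM in granulosa-like and at 114 CPM in smooth muscle-like cells.

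Of 20 sarcoplasmic reticulum and junctional genes 7 reached 5 CPM, PLN and JPH1 among them. The others were led by ATP2A2, the calcium pump of the reticulum (198 CPM), ITPR2 (170.5 CPM) and ASPH (93.5 CPM). JPH2, the junctophilin of heart and smooth muscle, was at 0.443 CPM in granulosa-like and at 16.8 CPM in smooth muscle-like cells. Of 9 creatine and energy genes 5 did, CKM among them. The highest apart from CKM were GAMT at 360.2 CPM and GATM at 37.3 CPM, which make creatine, and SLC6A8, its transporter, at 25.6 CPM. GAMT was highest in the INHA-AMH state, at 559 CPM, as CKM was, while CKB, the brain-type creatine kinase, was at 7.22 CPM and highest in macrophage-like cells, at 607 CPM. Of 10 Xin repeat and actin scaffold genes 7 did, with CRYAB (33.8 CPM), PDLIM5 (33.2 CPM) and ANKRD1 (32.4 CPM) the highest after the members. Of 12 neuromuscular junction genes 4 did, namely MUSK, COLQ, the collagen tail of acetylcholinesterase (33.7 CPM, and 69.2 in the INHA-AMH state), RAPSN, which clusters acetylcholine receptors (9.80 CPM, and 13.7 in the mural state), and AGRN, the nerve's agrin (8.06 CPM). LRP4, the agrin receptor that partners MUSK, was at 2.10 CPM, and DOK7, CHRNA1 and CHRNG were at 0. Of 18 myogenic regulators 7 did, led by TEAD1 (122 CPM), MEF2A (120.0 CPM) and MEF2D (51.4 CPM), factors with wide expression, and MYOD1 and MYOG, which commit cells to skeletal muscle, were at 0.

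The last comparison asked whether the genes differed between ewes of high and low litter size. UMI were summed per ewe and class and tested with edgeR's quasi-likelihood test, adjusted over all genes tested. In granulosa-like cells 0 of 11852 genes passed an adjusted p of 0.05 (0%), while 556 had an unadjusted p under 0.05 and DESeq2 called 2 genes. None of the 8 members was called there, by either tool. The log2 difference (HLS minus LLS, with its SE) was -1.23 ± 0.56 for PLN, -0.81 ± 0.36 for JPH1 and 0.79 ± 0.44 for TNNI3, each with an edgeR adjusted p of 0.95. Without LLS replicate 1, PLN was at -0.23. TNNI3 in granulosa-like cells ranged from 129 to 506 CPM in HLS ewes and from 143 to 228 in LLS ewes, and the groups overlapped. JPH1 stood at 40.8, 23.6 and 48.5 CPM in HLS ewes and at 48.4, 107 and 69.0 in LLS ewes, which also overlapped. The other 5 differences were between -0.48 (XIRP1) and 0.45 (CKM), with SEs of 0.32 to 0.64.

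The granulosa cells of the ewes differed in make-up. Mural cells made up 74.3, 20 and 29.4% of granulosa-like cells in HLS replicates 1 to 3 and 28.2, 49.2 and 31.1% in LLS replicates 1 to 3, and HLS replicate 2, with 38.9% in the INHA-AMH state against 8.55 to 29.2% in the others, had the highest TNNI3. Apart from HLS replicate 1, JPH1 was higher in ewes with a larger mural share. HLS replicate 1 had the highest mural share, 74.3%, and 40.8 CPM of JPH1. The part of the make-up in these differences was not tested. Within the mural state 0 of 9839 genes passed in edgeR (0%), 422 had an unadjusted p under 0.05 and DESeq2 called 3. Of the members tested there JPH1 differed most, by -0.60 ± 0.31, with an edgeR adjusted p of 0.99, and XIRP1 (-0.03 ± 0.49), MUSTN1 (-0.06 ± 0.28) and MUSK (-0.10 ± 0.35) were close to 0 with wide errors. In the INHA-AMH state 0 of 5550 genes passed in edgeR (0%, 224 unadjusted, 1 in DESeq2), with TNNI3 at 0.58 ± 0.28 and CKM at 0.27 ± 0.31.

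**Figure D5:**
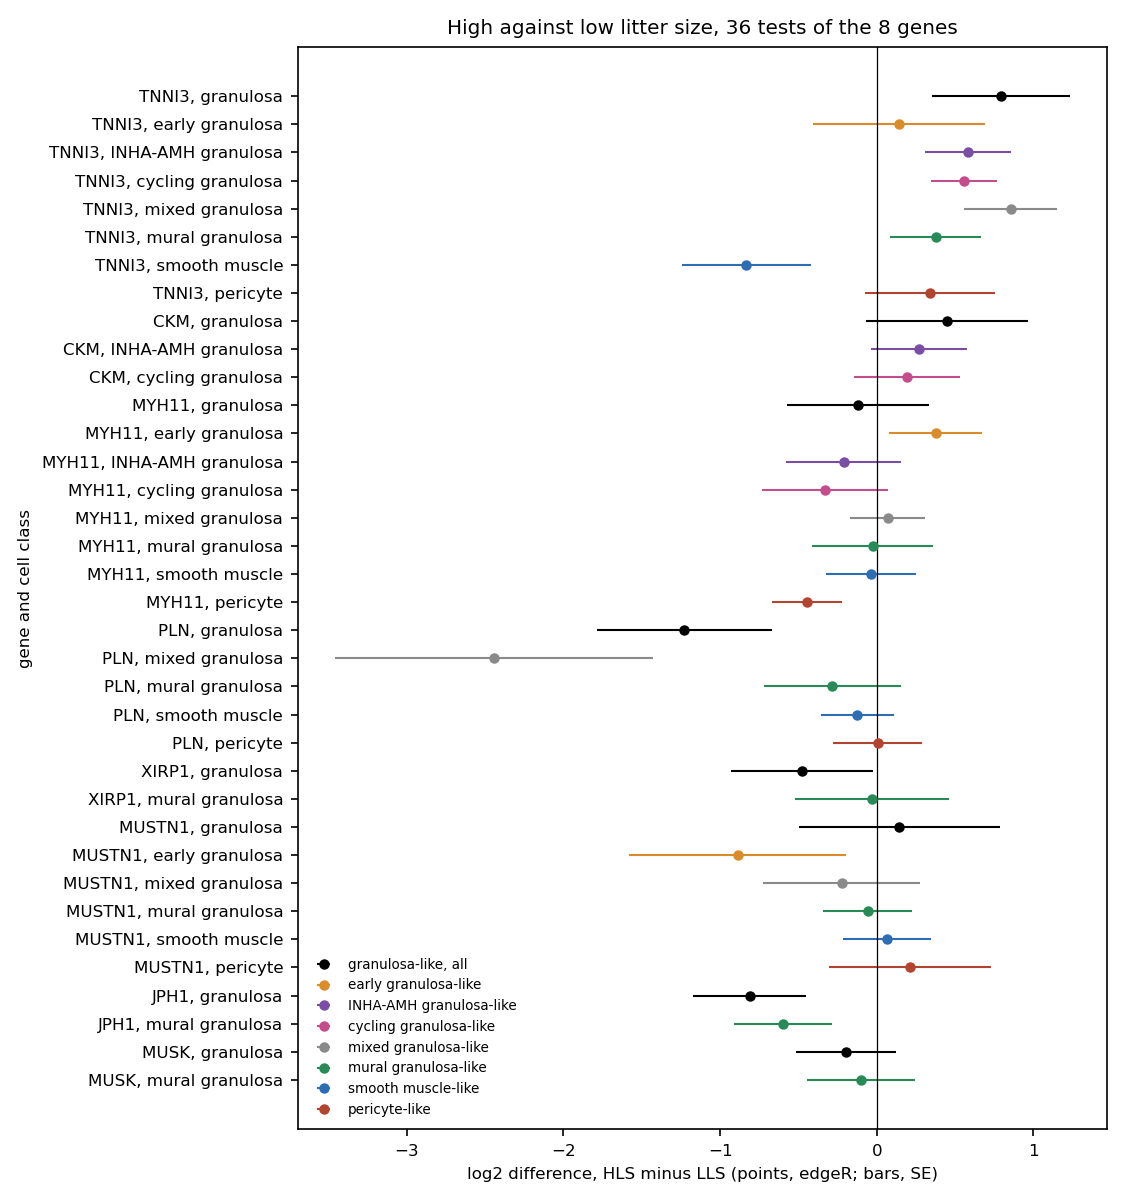
Log2 difference between HLS and LLS ewes (horizontal axis, points from edgeR, bars 1 SE) for 36 tests of the 8 genes in 8 cell classes (vertical axis, colour by class). None of the 36 passed an adjusted p of 0.05, and the largest, PLN in the mixed state at -2.44, has an SE of 1.02 and is -0.10 without HLS replicate 3.

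In the early state 1 of 6480 genes passed in edgeR (0.0154%, 503 unadjusted), no member. MUSTN1 was there at -0.89 ± 0.69, which turned to 0.82 without LLS replicate 3 and was -1.51 without HLS replicate 3, and MYH11 was at 0.38 ± 0.30. In the mixed state 1 of 6803 passed in edgeR (0.0147%, 359 unadjusted), no member, and in cycling granulosa cells 0 of 6656 (0%, 263 unadjusted, 0 in DESeq2). Over the 8 classes 36 tests of the members were made, of which 0 passed and 3 had an unadjusted p under 0.05. The unadjusted counts over all genes, given for each class, are the background to those 3. TNNI3 in cycling cells was 1 of these, at 847 and 918 CPM in HLS replicates 2 and 3 and at 683, 594 and 605 CPM in LLS ewes, which did not overlap, with a difference of 0.56 ± 0.21 (edgeR adjusted p = 1.0). TNNI3 in the mixed state was the next, at 161 and 136 CPM in HLS replicates 2 and 3 and at 102 and 70.2 CPM in LLS replicates 2 and 3, with 0.86 ± 0.30 (edgeR adjusted p = 0.79). PLN in the mixed state, at -2.44 ± 1.02 (edgeR adjusted p = 0.90), rested on 3, 2, 12 and 11 UMI, and was at -0.10 without HLS replicate 3 and -3.76 without HLS replicate 2. In smooth muscle-like cells 0 of 6342 genes passed in edgeR (0%, 240 unadjusted, 1 in DESeq2), with MYH11 at -0.04 ± 0.29, PLN at -0.12 ± 0.23, MUSTN1 at 0.07 ± 0.28 and TNNI3 at -0.83 ± 0.41. In pericyte-like cells 0 of 10232 passed in edgeR (0%, 220 unadjusted, 0 in DESeq2), with MYH11 at -0.45 ± 0.22 and PLN at 0.00 ± 0.28. The SEs show the limit of 3 ewes a group, and a p that missed the threshold does not show that the groups had the same level. In granulosa-like and mural cells 0 genes of any of the muscle lists were called in edgeR. The list medians in granulosa-like cells lay between -0.78 (striated muscle markers, 1 gene tested) and 0.41 (creatine and energy genes, 5 tested). The median over all 11852 genes tested was 0.01.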

How the data were processed

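Single-cell libraries (10x 3′ v3 chemistry) of 1 ovary from each of 6 ewes were measured. The authors mapped reads with Cell Ranger 5.0.0, which uses STAR, and deposited raw UMI counts by gene and barcode. The genome build is not given in the sources used here. The 8 genes, the gene lists and the markers were chosen with earlier results of these data known.

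Cells were kept at 200 genes and 1000 UMI or more, with log10 genes over log10 UMI of at least 0.7, at most 10% mitochondrial and at most 5% haemoglobin UMI, and 2007 doublets (5.22%) were called from simulated neighbours. Cells were clustered with leidenalg 0.10.2 (igraph 0.11.9; 2000 variable genes, 30 components, 20 neighbours, resolution 0.8) under Python 3.11.15 (scikit-learn 1.9.0, pandas 2.3.3, scipy 1.17.1, numpy 2.4.6). The genes of the muscle lists, the 8 members among them, were left out of the variable genes used for doublets and clusters. Clusters were named from markers, and granulosa cells were clustered again. Of these, 473 were left out because other cell types led their sub-clusters or they were shallow, and 3 clusters of 5144 cells remained unnamed. The largest unnamed cluster held 4338 cells and scored highest for stromal markers (0.929), then for smooth muscle markers (0.632). ACTA2, TAGLN, CNN1 and ACTG2 were among its leading genes. Unnamed cells have no place in the order of classes. CPM were summed per ewe and class with at least 10 cells. HLS and LLS were compared with edgeR 4.0.16 (filterByExpr, TMM, quasi-likelihood) in R 4.3.3, Benjamini-Hochberg adjusted with a threshold of 0.05, after the script was tested on simulated data. DESeq2 1.42.0 was an alternative, and figures were drawn with matplotlib 3.10.9. Named genes were the 8 members, the 3 highest of each list in granulosa-like cells and the 3 most correlated with each member over cell classes among 15635 genes that reached 5 CPM in a class. JPH2, CKB, MYOCD, RAPSN, LRP4, DOK7, CHRNA1, CHRNG, MYOD1, MYOG, LPAR1 and the list members at 0 were named after their values were seen. Neighbouring genes came from RefSeq (ARS-UI_Ramb_v3.0). Promoter sequence was not analysed here.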

Additional observations from a re-analysis of the deposited data

How the results depend on the processing

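None of the 8 genes passed the threshold between HLS and LLS ewes in the 450 tests under the alternatives run, where the smallest adjusted p was 0.0769 (edgeR or DESeq2). The counts of all genes called moved more. With no filter on low counts edgeR called 51 genes in the INHA-AMH state, 15 in cycling cells, 115 in the early state, 69 in the mixed state, 107 in the mural state, 30 in pericyte-like and 20 in smooth muscle-like cells. DESeq2 called 1 in the INHA-AMH state, 9 in the early, 3 in the mixed and 3 in the mural state, 1 in smooth muscle-like cells and 2 in granulosa-like cells. A mitochondrial limit of 20% gave 1 in the INHA-AMH and 0 in the early state, and no doublet removal 0 in the early state. Leaving out each ewe gave 0 to 1 in the INHA-AMH state, 0 to 26 in cycling cells (26 without HLS replicate 2), 0 to 11 in the early (11 without HLS replicate 1), 27 to 93 in the mixed (93 without HLS replicate 2) and 0 to 3 in the mural state (3 without LLS replicate 1), and 0 to 1 in smooth muscle-like cells.

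The replicate numbers 1 to 3 occur in both groups but belong to different ewes. Deviations of same-numbered ewes from their group means correlated at -0.0531, -0.176 and 0.200 in granulosa-like cells. HLS replicates 1 and 2 did not correlate best with their own number, while HLS replicate 3 did. HLS replicate 3 also did so in mural (0.177), smooth muscle-like (0.0346) and pericyte-like cells (0.268). So few correlations cannot show whether the numbers pair the ewes, and the main fits had no replicate block. With the replicate block edgeR called 5 genes in cycling cells, 9 in the early and 46 in the mixed state, no member among them, and MUSTN1 in granulosa-like cells went to -0.30.

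Of 296 alternative levels 9 moved by more than 1 SD. The 296 include means with 1 ewe left out, which cannot move by 1 SD from the mean over all ewes. Those means cannot show stability, and all 9 moves came from the other alternatives. TNNI3 in the INHA-AMH state was at 513 CPM with a mitochondrial limit of 20%, 481 at double the resolution and 512 with expression centred per ewe. CKM there was at 44.1, 36.8, 33.4, 35.6 and 38.8 CPM with no doublet removal, the 20% limit, double the resolution, centring per ewe and the lower sub-clustering resolution; the cause was not tested. MYH11 in the smooth muscle-like cells with no ACTA2 or TAGLN UMI was at 672 CPM, from 24 cells. Of 252 alternative differences 33 had another sign than the main value; apart from omitted ewes these were MYH11 in granulosa-like cells (0.068 with no doublet removal, 0.042 at the 20% limit), MUSTN1 in granulosa-like cells (-0.12 without TMM, -0.30 with the replicate block), XIRP1 in the mural state (0.019 at 20%), MYH11 in smooth muscle-like cells (0.045 at 20%) and PLN in pericyte-like cells (-0.11 without TMM, -0.012 with no filter). Leaving out each ewe, differences in granulosa-like cells ran from -0.34 to 0.78 for CKM, from -0.57 to 0.25 for MYH11, from -0.94 to 0.15 for XIRP1, from -1.02 to 0.58 for MUSTN1 and from -0.59 to 0.067 for MUSK. In the mural state they ran from -0.44 to 0.43 for XIRP1, from -0.44 to 0.15 for MUSTN1 and from -0.56 to 0.15 for MUSK. In smooth muscle-like cells they ran from -0.20 to 0.15 for MYH11 and from -0.17 to 0.29 for MUSTN1, and in pericyte-like cells from -0.22 to 0.26 for PLN and from -0.61 to 0.52 for MUSTN1.

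Cell classes were rebuilt from markers. No mixed state was found with no doublet removal, at the lower clustering resolution, or at the lower or the finer sub-clustering resolution. The differences given for the mixed state therefore depend on these settings. At the 20% limit the mixed state gave no test because too few ewes held enough cells. State sizes also moved. The early state of 713 cells held 270 at double the resolution and 1056 with finer sub-clustering. It held 277 with the genes of the muscle lists kept in clustering. The mixed state of 362 cells held 735 with the muscle genes kept. The oestrogenic and luteal-like cells stand for 1 ewe each. There were 3 ewes a group, and the ewes differed in depth and in granulosa make-up. Each edgeR p-value set a group difference against the spread between these ewes, which was estimated in part from all genes.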
